A study of Mus musculus with 4 samples.

Results

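Among 35869 gene rows measured in oligodendrocytes sorted from mouse cortex, 33 were genes known from blood vessel endothelium, from the mural cells around it (pericytes and smooth muscle) and from fibroblasts and the extracellular matrix they lay down. The set was given by symbol, and each of the 33 symbols stood on a row of the table. RNA was sequenced from cortical cells of postnatal day 5 mice that had been collected by flow sorting (FACS) as O4+GalC+, a pair of surface markers of oligodendrocytes. The groups were 2 libraries of Zfp488 knock-in/knock-in genotype, which the labels also call Zfp488 KO (KO 1 and KO 2), and 2 wild-type libraries (WT 1 and WT 2). The sources used here do not give the design of the allele, the strain or any pooling of animals. The labels call the material a cell line in one field, although the series describes sorted tissue. Nothing states that libraries of a genotype came from separate animals, so a p-value here measures only how these libraries vary, and that variation may be technical. The titles number the libraries 1 and 2 within each genotype, and nothing in the labels says what the number marks. The genes were therefore compared in both directions, KO against WT and libraries numbered 2 against libraries numbered 1.

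The endothelial cells of brain capillaries are sealed by tight junctions, for which claudin-5 is a main strand protein, and they carry transporters that move nutrients and drugs across the blood-brain barrier. They respond to vascular endothelial growth factors and angiopoietins through receptor tyrosine kinases. Pericytes are embedded with them in a shared basement membrane built on collagen IV, laminins and nidogen, and depend on PDGF receptor beta. Fibroblasts of the meninges and of larger vessels make the fibrillar collagens and small leucine-rich proteoglycans. GalC marks oligodendrocytes rather than these cells, although some of the genes, such as Sparc, are also made by glia.

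The values are FPKM, fragments scaled to transcript length and library size, and summed to between 311846 (KO 1) and 341145 (WT 2) per library. The read depth is not stated, but the lowest values moved in steps. On 1 kb of transcript 1 FPKM stood for about 40.2 fragments in KO 1, 39.1 in KO 2, 37.0 in WT 1 and 43.7 in WT 2, so neither the genotypes nor the library numbers separated by depth. Fragment numbers given below rest on these steps and on the longest annotated transcript, and are approximate. A value listed at 0 can be a failed estimate and is given only as listed. Of 13 oligodendrocyte lineage genes, Olig1, a transcription factor of the lineage, was high in every library, at 1456 and 1487 FPKM in KO 1 and KO 2 and at 1249 and 1392 FPKM in WT 1 and WT 2. Opalin, a gene of myelinating oligodendrocytes, was listed at 0 in KO 1 and KO 2, against 1.87 and 3.69 FPKM in WT 1 and WT 2. It did not pass the test between genotypes (limma adjusted p = 0.859), whose filter it met only through the WT libraries. Both KO libraries lay above both WT libraries for 4 of the 13 genes and below for 6, and 0 passed. Pdgfra, one of those above, was at 40.2 and 42.5 FPKM in KO 1 and KO 2, against 18.5 and 26.8 FPKM in WT 1 and WT 2.

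As a set, the vascular and fibroblast genes were much higher in the libraries numbered 2 than in those numbered 1, in both genotypes. The summed level of the 33 genes was 229.2 FPKM in KO 2 and 229.2 FPKM in WT 2, against 79.2 FPKM in KO 1 and 90.2 FPKM in WT 1. Both libraries numbered 2 lay above both numbered 1 for 19 of the 33 genes (57.6%), where 17.4% of the 22897 rows above 0 in any library did so. The reverse held for 1 gene, Vwf (3.03%), where 13% of those rows did so. Among the 10754 rows tested below, 22.3% lay above and 17.2% below in this way. Of the 19 genes, 5 stayed under 1 FPKM in every library. The median difference over the 33 genes was 0.57 on the log2(FPKM + 1) scale, which understates the change of genes with low values. Over the 22897 rows it was 0.0029. Within a genotype, 25 genes were higher in KO 2 than in KO 1 and 28 were higher in WT 2 than in WT 1. Those higher in both numbered 23, or 69.7%, where 24.0% of the 22897 rows were higher in both. In bulk libraries like these, more cells of a type and more RNA per cell cannot be told apart.

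**Figure D1:**
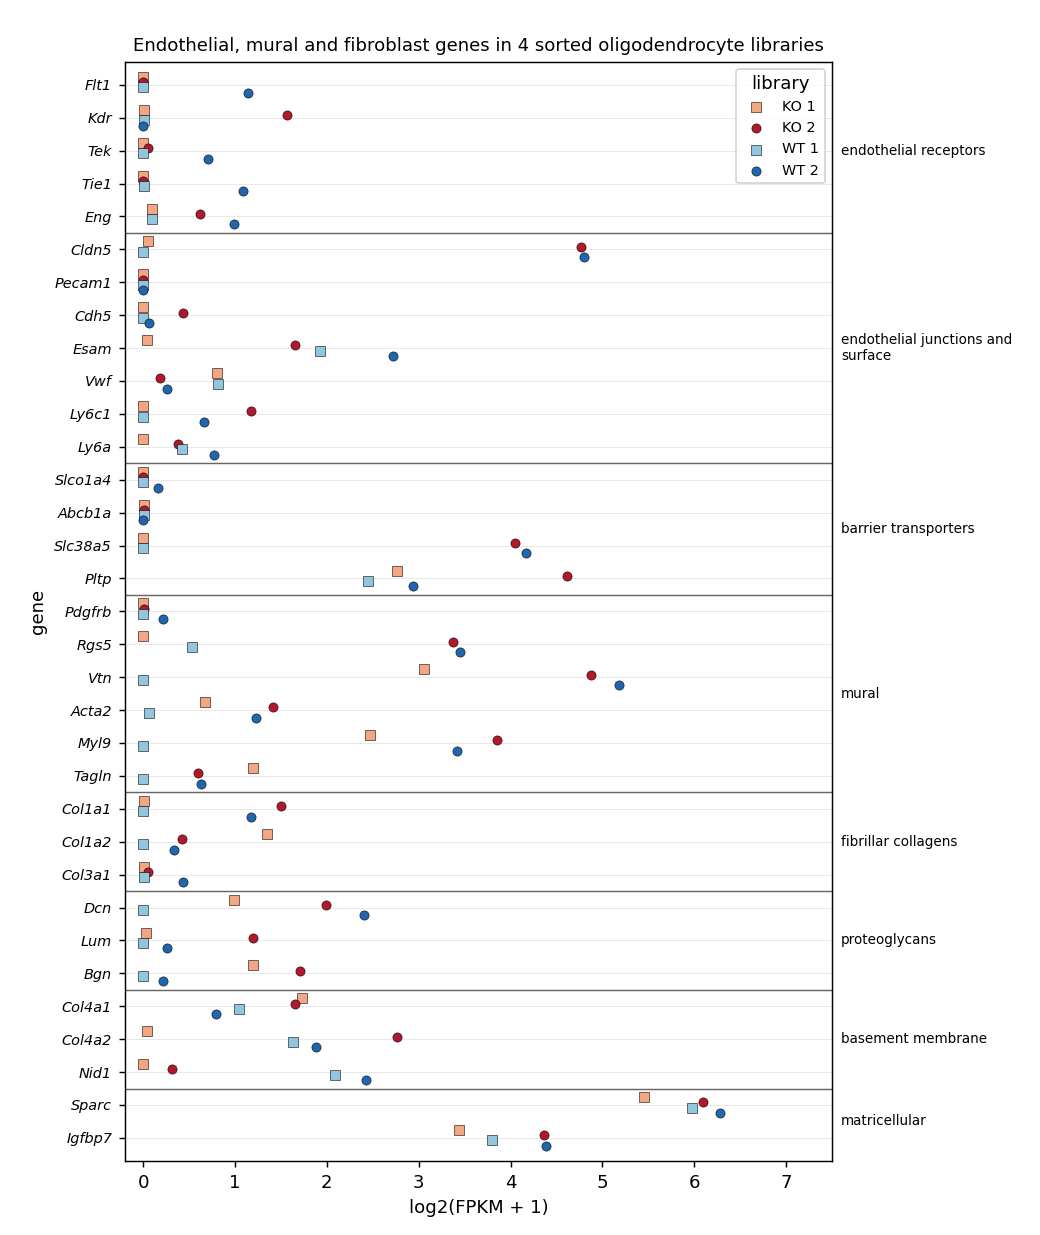
Level of each of the 33 genes, as log2(FPKM + 1), in the KO libraries (red tones) and the WT libraries (blue tones), with squares for libraries numbered 1 and circles for those numbered 2, grouped by role. For Cldn5, Slc38a5 and Rgs5 the circles of both genotypes sit together far to the right of the squares, while Pecam1 and Abcb1a sit at 0 in every library.

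The promoters of Cldn5 and Rgs5 are shown because these genes, an endothelial and a mural marker, had the same library pattern. They are the 250 bases before the start of each gene on the plus strand, from RefSeq (GRCm38.p6), at chr16:18776597-18776846 for Cldn5 and chr1:169655251-169655500 for Rgs5, and neither overlaps an annotated exon. Capitals mark ATTGG, which is the CCAAT box read on the other strand. CCAAT was searched on both strands, a motif chosen after the sequences were read.
Cldn5: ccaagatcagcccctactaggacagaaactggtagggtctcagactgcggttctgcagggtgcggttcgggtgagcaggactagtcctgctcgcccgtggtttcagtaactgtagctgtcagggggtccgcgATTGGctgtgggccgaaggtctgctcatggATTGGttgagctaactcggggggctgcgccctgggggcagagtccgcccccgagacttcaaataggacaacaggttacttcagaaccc
Rgs5: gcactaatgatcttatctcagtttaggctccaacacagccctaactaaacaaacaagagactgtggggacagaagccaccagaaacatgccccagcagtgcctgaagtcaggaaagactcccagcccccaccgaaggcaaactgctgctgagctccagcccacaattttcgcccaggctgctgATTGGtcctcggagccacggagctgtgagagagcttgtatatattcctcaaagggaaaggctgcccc
The Cldn5 promoter holds 2 of these boxes and the Rgs5 promoter 1. Of 32851 promoters of the same length in the RefSeq table, 33.8% hold at least 1. Of the 33 genes, 23 have an entry there, and 9 of these (39.1%) hold at least 1.

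Cldn5, which encodes claudin-5 of the endothelial tight junction, showed the library difference most sharply. It was at 26.3 and 26.8 FPKM in KO 2 and WT 2, against 0.035 FPKM in KO 1 and a listed 0 in WT 1. The level in KO 1 corresponded to about 1.99 fragments, that in KO 2 to about 1455. The groups of libraries did not overlap, and the KO and WT levels within a number were nearly equal. The difference between the numbers was 4.76 (SE 0.37) on the log2(FPKM + 1) scale and passed the test across all genes (limma with genotype as a second term, adjusted p = 0.0297). Slc38a5, an amino acid transporter of brain endothelium, was at 15.5 and 17.0 FPKM in KO 2 and WT 2 and was listed at 0 in both KO 1 and WT 1 (limma adjusted p = 0.0416). These were the 2 genes of the set that passed, in a comparison that called 39 of 10754 tested rows higher (0.363%) and 2 lower (0.0186%) in libraries numbered 2. Both entered the test only through the libraries where they were high. The calls hung on the settings: with libraries rescaled to TPM 97 rows were higher and 26 lower, and with a pseudocount of 0.5 no row passed (1360 at an unadjusted p under 0.05). Over 8 alternatives the adjusted p lay between 0.0103 and 0.762 for Cldn5 and between 0.0162 and 0.762 for Slc38a5, and 6 of the 8 ended both calls.

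This on-off pattern was rare among all rows. At least 5 FPKM in both libraries numbered 2 with under 0.1 FPKM in both numbered 1 was found for 7 of 35869 rows. Cldn5 and Slc38a5 were 2 of the 7, and Pglyrp1, a peptidoglycan recognition protein gene singled out after its values were seen, was another (9.91 and 19.4 FPKM in KO 2 and WT 2, listed at 0 in KO 1 and WT 1). The rest, among them Fam72a and Fam83d, were not of the 33 genes either. Fam83d was at 10.1 and 13.99 FPKM in KO 2 and WT 2, against 0.012 and 0.026 FPKM in KO 1 and WT 1. The opposite pattern was found for 1 row, which was not one of the 33 genes.

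The receptors of the endothelium stayed under 2 FPKM in every library, and their pattern was not shared from gene to gene. None of the 5 reached 1 FPKM in as many as 2 libraries, so they were not tested. Flt1, VEGF receptor 1, was at 1.20 FPKM in WT 2 (about 362.0 fragments) and at most 0.002 FPKM in the other libraries. Tie1, the partner of the angiopoietin receptor, likewise stood at 1.12 FPKM in WT 2 and at most 0.007 FPKM elsewhere. Kdr, VEGF receptor 2, was instead at 1.95 FPKM in KO 2 (about 452.3 fragments) and at most 0.003 FPKM in the other libraries, WT 2 included. Tek, the angiopoietin receptor itself, was at 0.635 FPKM in WT 2, 0.034 FPKM in KO 2 and a listed 0 in KO 1 and WT 1. Eng, or endoglin, a co-receptor for TGF-beta family ligands, was at 0.53 and 0.986 FPKM in KO 2 and WT 2, against 0.065 and 0.069 FPKM in KO 1 and WT 1. All 5 had their highest value in a library numbered 2. Flt1 and Tie1 stood well above single fragments in WT 2 alone and Kdr in KO 2 alone, while Eng did so in both.

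Other surface genes of endothelium were low as well, although Cldn5 was not. Pecam1, a classical adhesion marker of endothelium, was at 0.002 FPKM in KO 2 and listed at 0 in the other 3 libraries. Cdh5, or VE-cadherin of the adherens junction, was at 0.353 and 0.043 FPKM in KO 2 and WT 2 and listed at 0 in KO 1 and WT 1. Ly6c1 was at 1.25 and 0.586 FPKM in KO 2 and WT 2 and listed at 0 in KO 1 and WT 1. Its reads can be shared with close paralogs of the Ly6 family, and Ly6a, of the same family, stayed at or under 0.713 FPKM in every library. Vwf, the clotting factor stored by endothelium of larger vessels, was the gene with the reverse order, at 0.135 and 0.194 FPKM in KO 2 and WT 2, against 0.75 and 0.765 FPKM in KO 1 and WT 1. Esam, an adhesion molecule of endothelium, was present outside the libraries numbered 2: it was at 2.15 and 5.58 FPKM in KO 2 and WT 2, against 0.027 and 2.80 FPKM in KO 1 and WT 1 (difference 1.20, SE 0.42; limma adjusted p = 0.314).

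Of the barrier transport genes besides Slc38a5, Pltp alone was clearly detected. Pltp, which encodes a phospholipid transfer protein, was at 23.4 and 6.67 FPKM in KO 2 and WT 2, against 5.77 and 4.45 FPKM in KO 1 and WT 1. KO 2 stood well above the other 3 libraries, and the difference between the numbers was 1.17 (SE 0.43; limma adjusted p = 0.334). Abcb1a, the drug efflux pump P-glycoprotein, was between 0.002 and 0.005 FPKM in all 4 libraries, about 1 fragment or less each. Slco1a4, an organic anion transporter, was at 0.117 FPKM in WT 2 and listed at 0 in the other libraries.

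Most mural genes followed the library number, with both libraries numbered 2 above both numbered 1 for 5 of 6, where 17.4% of all rows above 0 did so. Rgs5, a regulator of G protein signalling used as a pericyte marker, was at 9.38 and 9.90 FPKM in KO 2 and WT 2, against a listed 0 in KO 1 and 0.449 FPKM in WT 1. The difference was 3.14 (SE 0.40; limma adjusted p = 0.059), which missed the threshold but passed after rescaling to TPM (0.0364) and after quantile normalization (0.0498). Rgs5 met the filter only through the libraries numbered 2, where it was high. Vtn, or vitronectin, made by brain pericytes, was the most abundant of the group at 28.5 and 35.3 FPKM in KO 2 and WT 2, against 7.34 FPKM in KO 1 and a listed 0 in WT 1 (difference 3.50, SE 0.78; limma adjusted p = 0.148). The value in KO 1 corresponded to about 514.3 fragments, and the 0 in WT 1 is given only as listed.

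The contractile genes of smooth muscle were mixed by number. Myl9, a myosin light chain, was at 13.4 and 9.65 FPKM in KO 2 and WT 2, against 4.56 FPKM in KO 1 and a listed 0 in WT 1 (difference 2.40, SE 0.57; limma adjusted p = 0.164). Acta2, smooth muscle actin, was at 1.65 and 1.34 FPKM in KO 2 and WT 2, against 0.595 and 0.043 FPKM in KO 1 and WT 1. Tagln, or transgelin, an actin-binding protein, had its highest value in KO 1 (1.30 FPKM), with 0.515 and 0.547 FPKM in KO 2 and WT 2 and a listed 0 in WT 1. Pdgfrb, the receptor that defines pericytes, was at 0.006 and 0.158 FPKM in KO 2 and WT 2 and listed at 0 in KO 1 and WT 1. The value in KO 2 corresponded to about 1.27 fragments, so the order of Pdgfrb by number is weakly based.

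Among the 6 genes of fibrillar collagens and proteoglycans, both libraries numbered 2 were above both numbered 1 for 4, where 17.4% of all rows above 0 did so. Of these, Dcn and Col1a1 were tested. Dcn, which encodes the collagen-binding proteoglycan decorin, was at 2.97 and 4.29 FPKM in KO 2 and WT 2, against 0.982 FPKM in KO 1 and a listed 0 in WT 1 (difference 1.70, SE 0.48; limma adjusted p = 0.222). Col1a1, the alpha 1 chain of collagen I, was at 1.84 and 1.26 FPKM in KO 2 and WT 2, against 0.004 FPKM in KO 1 and a listed 0 in WT 1 (difference 1.34, SE 0.37; limma adjusted p = 0.211). Col1a2, whose product joins the same collagen I trimer, did not share that pattern: it was highest in KO 1 at 1.54 FPKM, with 0.342 and 0.262 FPKM in KO 2 and WT 2 and a listed 0 in WT 1. Col3a1, the chain of collagen III, was at 0.037 and 0.348 FPKM in KO 2 and WT 2, against 0.009 and 0.01 FPKM in KO 1 and WT 1. Lum, or lumican, was at 1.29 and 0.198 FPKM in KO 2 and WT 2, against 0.024 FPKM in KO 1 and a listed 0 in WT 1.

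The 2 secreted matrix-associated genes were well above 1 FPKM in all 4 libraries. Sparc, a collagen-binding matricellular protein that glia also make, was at 67.4 and 76.5 FPKM in KO 2 and WT 2, against 42.7 and 61.9 FPKM in KO 1 and WT 1 (difference 0.47, SE 0.18; limma adjusted p = 0.361). Igfbp7, an insulin-like growth factor binding protein of vessels, was at 19.6 and 19.98 FPKM in KO 2 and WT 2, against 9.84 and 13.0 FPKM in KO 1 and WT 1 (difference 0.76, SE 0.27; limma adjusted p = 0.327). Both kept the order by number without overlap, but with a difference far smaller than that of Cldn5 or Rgs5.

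**Figure D2:**
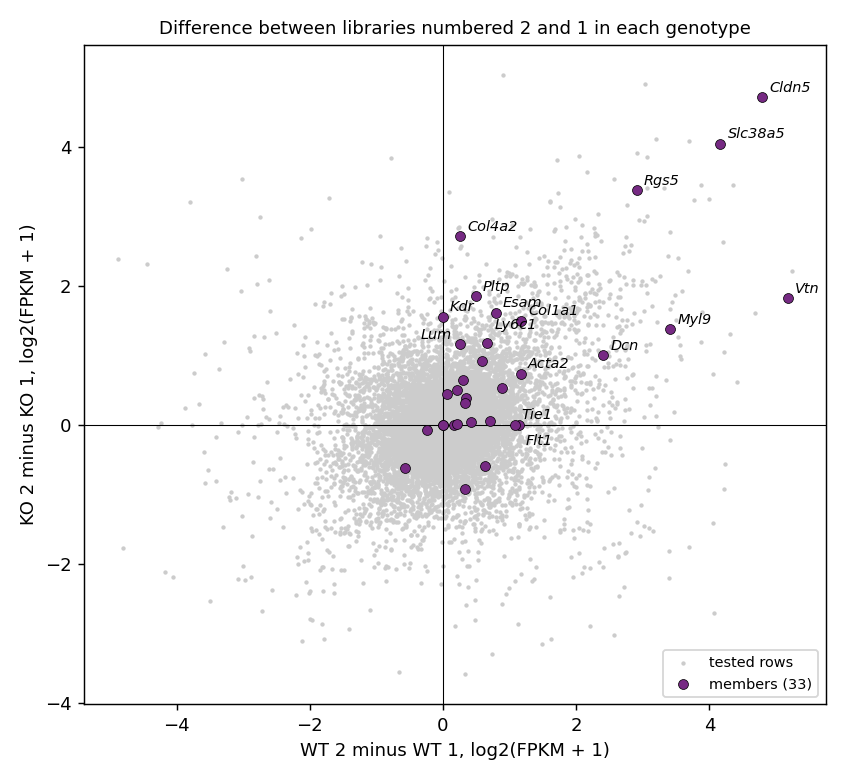
Difference between libraries numbered 2 and 1 on the log2(FPKM + 1) scale, in KO on the vertical axis and in WT on the horizontal axis, for the 33 genes (purple) and 10754 tested rows (grey). Cldn5, Slc38a5 and Rgs5 lie near the diagonal at the upper right, Vtn and Myl9 lie further out in WT, and Col4a2 and Kdr lie high in KO with little difference in WT.

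In all, 16 of the 33 genes had at least 1 FPKM in at least 2 libraries and were tested. Of these 16, 6 met that filter only through the libraries numbered 2, so their difference by number follows in part from the filter. An unadjusted p under 0.05 for the library number was reached by 11 genes, all higher in libraries numbered 2, where 8.02% of tested rows were higher and 5.16% lower at that level. Genes at 1 FPKM or more in every library numbered 3, namely Sparc, Igfbp7 and Pltp, and 10 stayed under 1 FPKM throughout.

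Further genes of the same cell types were read from lists outside the 33, to be set beside the 17.4% of all rows above 0 that lay above and the 13% that lay below by number. Of 21 other mural genes, both libraries numbered 2 were above both numbered 1 for 12 and below for 2. Kcnj8, the pericyte potassium channel subunit, was at 4.89 and 5.05 FPKM in KO 2 and WT 2, against 1.004 FPKM in KO 1 and a listed 0 in WT 1. Ndufa4l2, a mitochondrial protein gene enriched in pericytes, was at 3.67 and 5.49 FPKM in KO 2 and WT 2, against 0.052 and 0.042 FPKM in KO 1 and WT 1 (difference 2.39; limma adjusted p = 0.0894). Heyl, a Notch target of mural cells, went the other way, with 0.225 and 0.136 FPKM in KO 2 and WT 2, against 3.92 and 4.12 FPKM in KO 1 and WT 1 (difference -2.09; limma adjusted p = 0.104). Ndufa4l2 met the filter only through the libraries numbered 2 and Heyl only through those numbered 1. Their differences by number therefore follow in part from the filter. Of 26 other fibroblast and meningeal genes, 10 were above and 2 below. Pcolce, an enhancer of procollagen processing, was at 2.53 and 1.38 FPKM in KO 2 and WT 2, against 0.036 FPKM in KO 1 and a listed 0 in WT 1. Mmp2 went the other way, at 4.64 and 11.7 FPKM in KO 2 and WT 2, against 15.9 and 16.8 FPKM in KO 1 and WT 1. Of 13 other basement membrane genes 2 were above, a share no higher than over all rows, and 1 was below. Of 25 angiogenic ligands, receptors and modulators 8 were above and 1 below. Genes of these lists that were tested numbered 8 mural, 4 fibroblast, 3 basement membrane and 13 angiogenic, and none passed in either comparison. Some genes counted as above had very low values, such as Tbx18 and Postn at 0.012 FPKM or less in every library. Their order by number is weakly based.

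Of the 35 other endothelial genes in the table, 11 were above and 2 below by number (17.4% and 13% of all rows above 0). Only 16 of the 35 were tested, and Foxf2, counted as above, stayed at or under 0.087 FPKM. Slco1c1, a thyroid hormone transporter of the barrier, was at 2.30 and 3.36 FPKM in KO 2 and WT 2, against 0.583 FPKM in KO 1 and a listed 0 in WT 1. Mfsd2a, the lysolipid transporter of barrier endothelium, was instead high everywhere, at 183.0 and 180.4 FPKM in KO 2 and WT 2, against 211.9 and 180.5 FPKM in KO 1 and WT 1. Bsg, or basigin, was at 115.5 and 117.4 FPKM in KO 2 and WT 2, against 120.2 and 117.8 FPKM in KO 1 and WT 1. Ramp2 and Itm2a, named after their values were seen, were at 80.1 FPKM or more in all 4 libraries. The summed level of the 35 genes was accordingly alike, at 627.9 and 612.0 FPKM in KO 2 and WT 2, against 611.3 and 594.5 FPKM in KO 1 and WT 1. Mfsd2a, Bsg, Ramp2 and Itm2a made up most of that sum in every library. It therefore says little about the genes of the list with low values, such as Slco1c1.

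Many markers of microglia, red blood cells and astrocytes were also higher in the libraries numbered 2, where 17.4% of all rows above 0 lay above and 13% below. Of 16 microglia and macrophage genes both libraries numbered 2 were above for 13 and below for 0, with a summed level of 217.0 and 205.8 FPKM in KO 2 and WT 2, against 65.0 and 71.8 FPKM in KO 1 and WT 1. C1qb, a complement gene of microglia, passed the test at 53.6 and 43.4 FPKM in KO 2 and WT 2, against 9.85 and 9.97 FPKM in KO 1 and WT 1 (difference 2.17). P2ry12, a defining microglial receptor, was at 2.67 and 2.29 FPKM in KO 2 and WT 2. In KO 1 it was at 0.174 FPKM and in WT 1 it was listed at 0. Tmem119, also of the list, overlapped, at 2.24 FPKM in KO 1 and at most 0.038 FPKM in the other libraries. Of 6 red blood cell genes 4 were above, with sums of 899.3 and 965.4 FPKM in KO 2 and WT 2, against 485.0 and 567.1 FPKM in KO 1 and WT 1. Of 10 astrocyte genes 9 were above, with sums of 258.6 and 171.2 FPKM in KO 2 and WT 2, against 116.6 and 91.8 FPKM in KO 1 and WT 1, and Aldh1l1 was listed at 0 in both numbered 1. Of 11 neuronal genes 4 were above and the other 7 overlapped, with sums of 54.5 and 39.9 FPKM in KO 2 and WT 2, against 31.7 and 25.7 FPKM in KO 1 and WT 1. Only 5 astrocyte and 5 neuronal genes were tested. Gjb6 of the astrocyte list, counted as above, stayed at or under 0.014 FPKM in every library. The 13 oligodendrocyte lineage genes summed to 2574 and 2700 FPKM in KO 2 and WT 2, against 3024 and 2947 FPKM in KO 1 and WT 1, with 0 above and 3 below. Olig1 and Olig2 made up most of that sum in every library, with differences by number of 0.09 and 0.02. The sum therefore says little about the rest of the list, and the median difference by number over the 13 genes was -0.79. Cnp was at 150.7 and 261.1 FPKM in KO 2 and WT 2, against 308.8 and 440.1 FPKM in KO 1 and WT 1. Cell cycle genes, named after their values were seen, were also among the 39 rows called higher, such as Cdk1 at 77.0 and 71.0 FPKM in KO 2 and WT 2, against 16.0 and 10.8 FPKM in KO 1 and WT 1. The part of these cells in the difference of the vascular and fibroblast genes between library numbers was not tested.

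**Figure D3:**
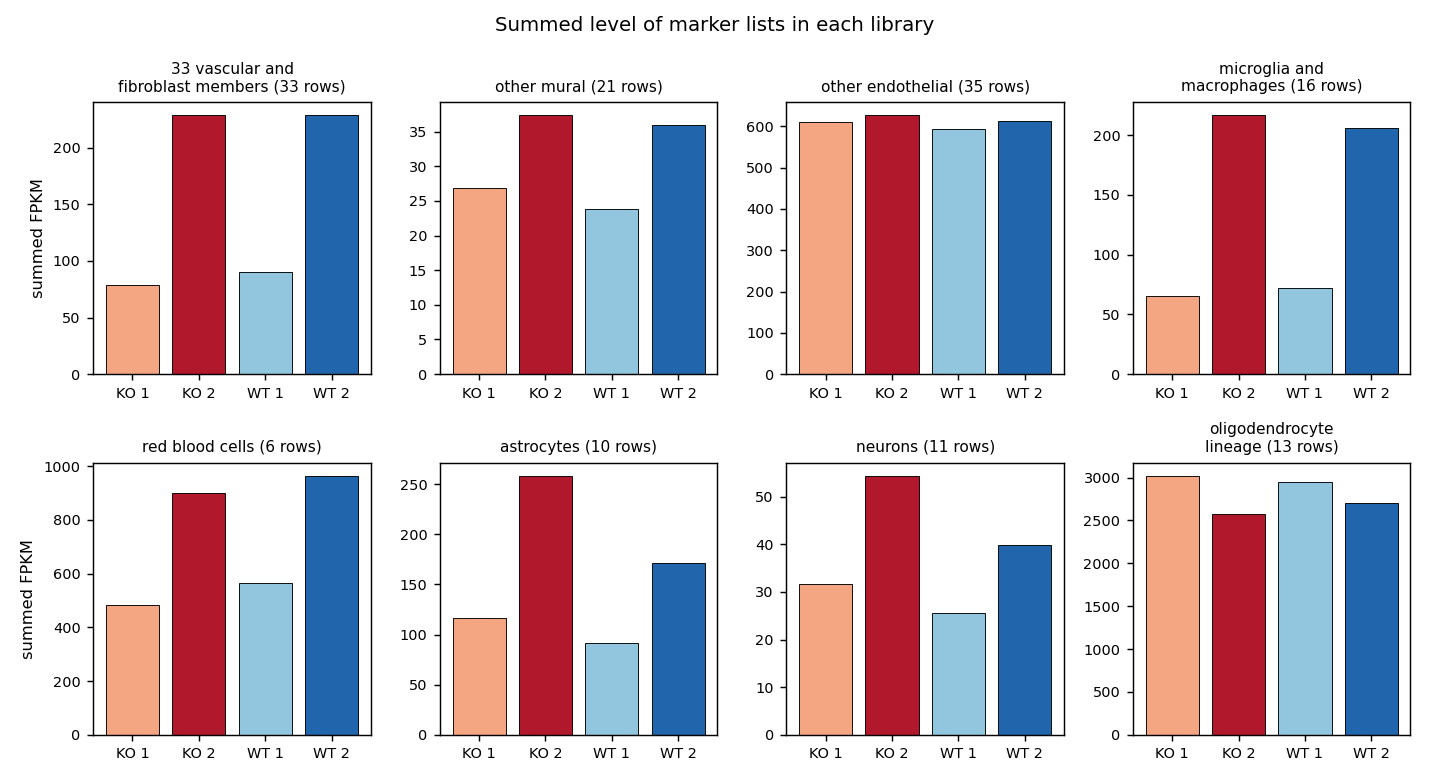
Summed FPKM of the 33 genes and of 7 marker lists in each library, with KO bars in red tones left of WT bars in blue tones and each vertical axis starting at 0. The sums of the 33 genes, of microglia and macrophage genes and of red blood cell genes are higher in KO 2 and WT 2 than in KO 1 and WT 1. The sum of other endothelial genes is nearly level, but most of it comes from Mfsd2a, Bsg, Ramp2 and Itm2a.

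Between genotypes no gene of the set passed the test, and the set as a whole lay near its background. The median difference of KO minus WT over the 33 genes was 0.0014 on the log2(FPKM + 1) scale, against 0 over the 22897 rows. Both KO libraries lay above both WT libraries for 4 of 33 genes (12.1%), where 13.8% of the rows did so, and below for 5 (15.2%), where 13.3% of the rows did so. Among tested rows 16.6% lay above and 18.3% below. In the test across all genes 0 of the 16 tested members passed (0% of 10754 rows called by limma). At an unadjusted p under 0.05, 2 of the 16 (12.5%) were found, where 5.65% of tested rows were, or 302 rows higher and 306 lower. After rescaling to TPM 383 rows were higher and 181 lower at that level. The values below are therefore of genes that did not pass.

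Nid1 had the largest difference of the set. Nid1 encodes nidogen-1, which links laminin and collagen IV networks in the basement membrane. It was listed at 0 in KO 1 and at 0.24 FPKM in KO 2, against 3.27 FPKM in WT 1 and 4.39 FPKM in WT 2, or about 57.2 fragments in KO 2 against about 735.8 and 1168 in the WT libraries. The genotypes did not overlap, the order was the same in both pairs of equal number, and the log2 difference was -2.11 (SE 0.38; limma adjusted p = 0.859). Nid1 thus did not follow Cldn5 or Rgs5, which were at nearly equal levels in the genotypes. Among the other basement membrane genes, Lama4, a laminin chain of endothelium, was at a listed 0 and 0.287 FPKM in KO 1 and KO 2, against 1.46 and 3.82 FPKM in WT 1 and WT 2 (difference -1.60; limma adjusted p = 0.859), and it met the filter only through the WT libraries. Of these 13 genes 1 lay above and 2 below in both KO libraries, where 13.8% and 13.3% of all rows above 0 did so. Dag1, the dystroglycan receptor for laminin, was at 6.90 and 4.49 FPKM in KO 1 and KO 2, against 3.84 and 2.92 FPKM in WT 1 and WT 2.

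Bgn and Esam also separated by genotype, in opposite directions. Bgn, which encodes the matrix proteoglycan biglycan, was at 1.30 and 2.25 FPKM in KO 1 and KO 2, against a listed 0 in WT 1 and 0.158 FPKM in WT 2 (difference 1.35, SE 0.40; limma adjusted p = 0.859). It met the filter only through the KO libraries, as Nid1 did only through the WT libraries. Esam was at 0.027 and 2.15 FPKM in KO 1 and KO 2, against 2.80 and 5.58 FPKM in WT 1 and WT 2 (difference -1.48, SE 0.67; limma adjusted p = 0.902). Myl9 and Vtn had positive differences of 1.46 (SE 1.21) and 1.38 (SE 1.76), with overlapping genotypes, and each was listed at 0 in WT 1. Without WT 1 their differences were -0.25 and -1.21.

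Col4a1 and Col4a2 form the collagen IV heterotrimer of the vascular basement membrane and are transcribed in opposite directions on chromosome 8. Their RefSeq starts (GRCm38.p6) lie at 11312826 on the minus strand and 11312805 on the plus strand, so that the transcripts overlap by 22 bases. The strand setting of the quantification is not given, so fragments in that overlap cannot be told apart. The pair did not keep a fixed ratio. Col4a1 was at 2.32 and 2.15 FPKM in KO 1 and KO 2, against 1.06 and 0.738 FPKM in WT 1 and WT 2, with no overlap of the genotypes. Col4a2 was at 0.031 and 5.78 FPKM in KO 1 and KO 2, against 2.09 and 2.69 FPKM in WT 1 and WT 2, so that the KO libraries lay on either side of the WT libraries. In KO 1 about 615.8 fragments of Col4a1 stood beside about 8.04 of Col4a2.

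**Figure D4:**
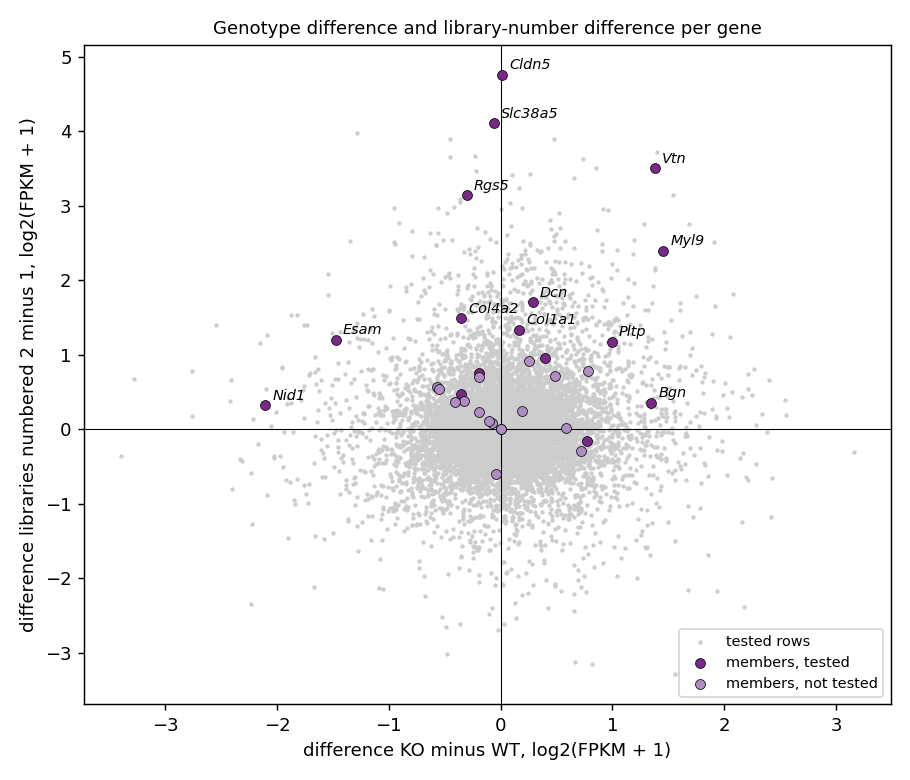
Difference of KO minus WT on the horizontal axis and of libraries numbered 2 minus 1 on the vertical axis, both on the log2(FPKM + 1) scale, for the tested members (dark purple), the members not tested (light purple) and 10754 tested rows (grey). The members spread upward along the library number, with Cldn5 highest at 4.76, and lie on both sides of 0 for genotype, from Nid1 at -2.11 to Myl9 at 1.46.

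Among further lists, values by genotype are to be set beside the 13.8% of all rows above 0 that lay above and the 13.3% that lay below. S1pr1, a sphingosine 1-phosphate receptor, was at 46.7 and 42.6 FPKM in KO 1 and KO 2, against 29.5 and 26.3 FPKM in WT 1 and WT 2 (difference 0.66; limma adjusted p = 0.859). Vegfb, a ligand of Flt1, was at 26.2 and 33.1 FPKM in KO 1 and KO 2, against 31.8 and 37.1 FPKM in WT 1 and WT 2, with overlap. Vegfc, a lymphangiogenic ligand, was at 5.45 and 1.17 FPKM in KO 1 and KO 2, against 12.5 and 4.13 FPKM in WT 1 and WT 2, and was also lower in the library numbered 2 of each genotype (difference by number -1.49; limma adjusted p = 0.175). Adm was at 3.38 and 2.55 FPKM in KO 1 and KO 2 and listed at 0 in WT 1 and WT 2 (difference 1.98; limma adjusted p = 0.859). It met the filter only through the KO libraries. Over the 25 angiogenic genes both KO libraries were above for 6 and below for 2. Reck, which helps endothelium to sense Wnt7 ligands, was at 0.079 and 0.111 FPKM in KO 1 and KO 2, against 1.70 and 1.46 FPKM in WT 1 and WT 2 (difference -1.24; limma adjusted p = 0.859), and it met the filter only through the WT libraries. Among the 35 other endothelial genes both KO libraries were above for 7 and below for 2, among the 21 mural genes above for 0 and below for 2, and among the 26 fibroblast genes above for 2 and below for 1.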

How the data were processed

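RNA of sorted mouse oligodendrocytes was sequenced in 4 libraries, 2 KO and 2 WT. The authors deposited FPKM in 1 table, per the file headers. TopHat and the mm10 build are named in the submitters' processing notes, without a version. The sources used here do not give the estimating program, annotation, strand setting or filters. FPKM are not counts, and no count model was used. Values were analysed as log2(FPKM + 1), without further scaling. Rows with at least 1 FPKM in at least 2 libraries were fitted together (10754 rows) with limma 3.58.1 in R 4.3.3, using a variance trend on the mean level. Two-sided p-values were adjusted by Benjamini-Hochberg over all tested rows, at a threshold of 0.05. The model for KO over WT held genotype alone, and the model for library number 2 over 1, as numbered in the titles, held number and genotype. The fit was checked on simulated data: of 200 genes changed 8-fold, 99.5% were called for genotype and 100% for number, and of 200 changed 2-fold 28% and 25.5%. Unchanged genes called numbered 13 and 13 at 8-fold, and 5 and 2 at 2-fold. The simulated noise was independent between libraries, with a spread set by mean level alone. The genotype simulation held no difference by library number, so these shares do not give the power in the deposited values.

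What 1 fragment is worth came from the most frequent product of low FPKM and length, over genes with a single annotated transcript in GENCODE M21 (GRCm38). Fragments per gene then used its longest transcript. Sequences and starts came from RefSeq GRCm38.p6. The 33 genes and all marker lists were chosen with earlier results of these data known, so the set itself was given no test. Values in every library are given for members with a mean of at least 10 FPKM, an unadjusted p under 0.05 or a log2 difference of at least 1 in either comparison, and for others as far as space allowed. From the marker lists some of the abundant genes and of those with large differences were named, but not all. Gja1, with the largest difference by number of the astrocyte list, was left out, and no neuronal gene was named. Alternatives were pseudocounts of 0.1 and 0.5, no filter, a filter at 0.5 FPKM, TPM, quantile normalization, no trend and each library left out. The genotype fit was also run with library number as a replicate block, and the number fit without genotype. Of 36 symbols in the list of other endothelial genes 35 stood in the table, and of 8 red blood cell symbols 6.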

Additional observations from a re-analysis of the deposited data

Results flagged for a closer look

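Col4a2 had opposite differences between genotypes in the libraries of each number: KO minus WT was 0.88 in the libraries numbered 2 and -1.58 in those numbered 1, on the log2(FPKM + 1) scale. Tagln had opposite differences between library numbers in the genotypes: library 2 minus library 1 was -0.60 in KO and 0.63 in WT. Each side of these comparisons is a single pair of libraries, and the difference between the sides was not tested.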

How the results depend on the processing

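For KO over WT, 0 rows passed under every one of the 12 alternatives run, with a smallest adjusted p between 0.413 and 0.9998. With the replicate block, 1025 rows had an unadjusted p under 0.05, against 608 without it, and Nid1 had an adjusted p of 0.413. Same-numbered libraries deviated together only in part (r = 0.289 across 10754 rows), and the labels do not say that the number pairs them. The members' median lay between -0.40 and 0.28 when single libraries were left out. Without WT replicate 1 the genotype difference was -1.21 for Vtn and -0.25 for Myl9. With single libraries left out it lay between -1.21 and 3.97 for Vtn and between -0.25 and 3.16 for Myl9. For library number 2 over 1, 41 rows passed, but 0 with log2(FPKM + 0.1) (1267 at an unadjusted p under 0.05), log2(FPKM + 0.5) (1360) and no filter (1434). Likewise 0 passed with a filter at 0.5 FPKM (1556), no trend (1231) and number alone, without the genotype term (1172). Rescaling to TPM gave 123 rows and quantile normalization 73. Leaving out a library leaves no residual degrees of freedom there, so no count could be had. The members' median of 0.57 became 1.65 with log2(FPKM + 0.1), 0.84 with log2(FPKM + 0.5) and 1.04 after rescaling to TPM. With a library left out, the number term rests on the single pair of the other genotype. The members' median was then 0.52 without either WT library and 0.49 without either KO library. These values only repeat the medians within KO and within WT, so they are no check of stability. The cause of the changes between settings was not tested. Intervals for counting error are not given because FPKM hold no counts.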
